A study of Homo sapiens with 6 samples.

Results

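Natural antisense RNAs are transcripts read from the strand opposite a named gene, and their symbols carry the name of that partner gene followed by AS and a number. Of 61806 gene rows, 1768 had such a symbol, and the 276 that held at least 150 counts over the 6 libraries are described here with their partner genes. They were chosen by that total alone. The total does not use the direction of a change, but an RNA low in one group entered only if the other group was high. Of the other antisense rows, 563 were at 0 in every library and 929 held at least 1 count but fewer than 150.

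The cells were A549, a human lung adenocarcinoma line labelled wild type. After 24 h in the well they received Japoflavone B, labelled with a dose of 40 without a unit, or the solvent DMSO, and were harvested 24 h later, with 3 libraries in each group. The libraries of the first group are titled LE-532, a code the labels do not explain, and the series title calls Japoflavone B an inhibitor of PARP1, the enzyme that adds ADP-ribose chains at DNA breaks. Poly(A) RNA was sequenced after random priming, so antisense RNAs without a poly(A) tail were not sampled. No label states that the replicates were separate cultures, and p-values then measure the spread between these libraries, which may be technical.

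An antisense RNA can begin near the start of its partner and run away from it (head to head), overlap the partner's end (tail to tail) or lie inside the partner's span (nested). Many arise where a promoter fires in both directions, and most such transcripts are short-lived because the nuclear exosome, a ring of subunits with attached nucleases, degrades them. A few have described roles at their own locus or elsewhere in the cell, and for most none is known.

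Totals ran from 15298531 to 21744407 counts per library. KRT8 and KRT18, the keratin pair of simple epithelium, and the A549-typical aldo-keto reductase AKR1B10 were abundant in both groups, but lower after Japoflavone B. FPKM is the count scaled to exon length and to the library total. KRT8 averaged 83.9 FPKM after Japoflavone B and 257.1 FPKM after DMSO, KRT18 averaged 130.03 FPKM after Japoflavone B and 463.5 FPKM after DMSO, and AKR1B10 averaged 622 FPKM after Japoflavone B and 1589 FPKM after DMSO. The other epithelial markers were low in both groups: CDH1 averaged 3.03 FPKM after Japoflavone B against 11.7 FPKM after DMSO, KRT19 averaged 2.92 FPKM after Japoflavone B against 4.68 FPKM after DMSO, and EPCAM averaged 0.673 FPKM after Japoflavone B against 0.907 FPKM after DMSO. Markers of leukocytes and endothelium were at or near 0, and of the fibroblast markers COL1A1 averaged 0.473 FPKM after Japoflavone B and 4.64 FPKM after DMSO, with PDGFRB and DCN below 0.1 FPKM in both. Whether these marker differences or other cells had a part in the results was not tested. Of 16082 genes that passed the filter on low counts, 70% passed the test between the groups, which was edgeR's quasi-likelihood test with a Benjamini-Hochberg adjusted p under 0.05. Fewer cells of a type and less RNA per cell cannot be told apart in these bulk libraries.

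Antisense RNAs were scarce transcripts, and Japoflavone B moved them in both directions. All 276 passed the filter; 77 rose and 83 fell after Japoflavone B, and 116 did not pass the test. That is 27.9% higher and 30.1% lower, beside 34.7% and 35.4% of all genes tested. Among antisense RNAs with 150 to 1000 counts, 126 of 231 passed (54.5%), 60 of them higher and 66 lower, beside 61.9% of the 3503 genes in that count range, 25.6% higher and 36.4% lower. Of the 45 with more than 1000 counts 17 rose and 17 fell (75.6%), beside 79.3% of the 10032 genes in that range, 41.8% higher and 37.4% lower. In all, 58% of the antisense RNAs were called, beside 70% of all genes. Their standard errors were wider, with a median of 0.232 on the log2 scale beside 0.102 over all genes. A change of at least 2-fold together with the test was met by 38 antisense RNAs that rose (13.8%) and 41 that fell (14.9%), beside 9.67% and 15% of all genes. The groups did not overlap in 168 antisense RNAs (60.9%), beside 72.4% of all genes. Of the 160 calls, 148 came with groups that did not overlap.

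The median log2 fold change of the antisense RNAs was -0.10, beside -0.00 over all genes. Together they held 0.179% ± 0.00639 of the counts in the Japoflavone B libraries and 0.197% ± 0.00851 in the DMSO libraries (SD, n = 3 each). By library the share was 0.184%, 0.172% and 0.180% after Japoflavone B, against 0.201%, 0.203% and 0.187% after DMSO. The 3 Japoflavone B libraries were the lower ones, and the groups did not overlap. This share weighs each antisense RNA by its counts, and the abundant FGD5-AS1 and OIP5-AS1 both fell (log2 fold changes -0.70 and -0.84). Without them the share was not computed, so it does not describe the antisense RNAs as a class. Scaling by library totals alone moved the median of all genes by -0.10 and gave 67 antisense RNAs higher and 91 lower. Without the second DMSO library the median of the antisense RNAs was -0.02, with 76 higher and 67 lower.

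At the edge of the count threshold the values were small. Just inside lay DMTF1-AS1 with 150 counts, USP3-AS1 with 151 and PPP1R26-AS1 with 152, and just outside lay DDX59-AS1 with 149 and KDM4A-AS1 and BAALC-AS1 with 148 each. DDX59-AS1 held 136 of its counts after Japoflavone B and 13 after DMSO. DMTF1-AS1 held 94 counts after Japoflavone B and 56 after DMSO. The minimum total kept a low transcript in one group only if the other group was high: 61 antisense RNAs had fewer than 75 counts in a group, of which 15 rose and 32 fell, and among the other 215, with at least 75 in each group, 62 rose and 51 fell.

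Set per length, the antisense RNAs stood below their partners at most loci. Their median was 0.96 FPKM over the 6 libraries, beside 5.57 FPKM for the 245 partners that passed the filter, and 144 antisense RNAs were below 1 FPKM. The antisense RNA was the higher of the pair at 44 of these 245 loci, and its median level was 17.8% of the partner's. The 6 most abundant were FGD5-AS1, OIP5-AS1, MAPKAPK5-AS1, PITPNA-AS1, TNFRSF10A-AS1 and CLN8-AS1.

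Positions are on GRCh38, as the deposited table gives them, and CPM are counts per 1000000 counts of the library after scaling, which do not take length into account. FGD5-AS1 (chr3:14920347-14948424, minus strand) averaged 22.8 ± 1.09 FPKM in the Japoflavone B libraries and 39.8 ± 0.490 FPKM in the DMSO libraries (SD, n = 3 each). By library it had 144, 136 and 148 CPM in the Japoflavone B libraries, against 233, 228 and 237 CPM in the DMSO libraries. Every Japoflavone B library was below every DMSO library, and FGD5-AS1 was 1.63-fold lower (log2 fold change -0.70 ± 0.05 SE, edgeR adjusted p = 1.71e-12). Its partner FGD5, an exchange factor for the GTPase CDC42 that is typical of endothelium, held 19 counts in all and was not tested.

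OIP5-AS1 (chr15:41283990-41309737, plus strand), a long noncoding RNA also known as Cyrano, averaged 9.07 ± 0.416 FPKM in the Japoflavone B libraries and 17.5 ± 1.20 FPKM in the DMSO libraries (SD, n = 3 each). It had 122, 114 and 122 CPM in the Japoflavone B libraries, against 230.2, 209 and 203 CPM in the DMSO libraries. The DMSO libraries were the high ones without overlap, and OIP5-AS1 was 1.79-fold lower (log2 fold change -0.84 ± 0.06 SE, edgeR adjusted p = 2.16e-13). OIP5, a centromere protein needed to load the centromeric histone, was the lower of the pair in CPM, with 2.40, 3.59 and 2.80 CPM in the Japoflavone B libraries, against 10.1, 12.1 and 13.3 CPM in the DMSO libraries. OIP5 was 4.06-fold lower (edgeR adjusted p = 2.50e-11).

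MAPKAPK5-AS1 (chr12:111839758-111842902, minus strand) averaged 12.6 ± 1.28 FPKM in the Japoflavone B libraries and 9.41 ± 0.843 FPKM in the DMSO libraries (SD, n = 3 each). Its values were 42.9, 44.2 and 36.2 CPM in the Japoflavone B libraries, against 25.7, 29.8 and 30.4 CPM in the DMSO libraries. They were higher in all 3 Japoflavone B libraries, and the RNA was 1.44-fold higher (log2 fold change 0.52 ± 0.09 SE, edgeR adjusted p = 5.04e-06). MAPKAPK5, a kinase activated by p38, had 32.2, 33.1 and 31.3 CPM in the Japoflavone B libraries, against 40.1, 41.6 and 41.2 CPM in the DMSO libraries. The kinase was 1.27-fold lower (edgeR adjusted p = 1.24e-04), so the head-to-head pair, with 792 bases of overlapping exon, moved in opposite directions.

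PITPNA-AS1 (chr17:1516877-1518101, plus strand) likewise rose where its partner fell. It had 7.55, 7.98 and 7.07 CPM in the Japoflavone B libraries, against 4.69, 5.87 and 5.09 CPM in the DMSO libraries. The antisense RNA was 1.44-fold higher (log2 fold change 0.52 ± 0.16 SE, edgeR adjusted p = 0.00420), without overlap between groups. PITPNA, which transfers phosphatidylinositol between membranes, was 1.29-fold lower (edgeR adjusted p = 2.55e-06). CLN8-AS1 (chr8:1761054-1764508, minus strand), nested in the gene of an endoplasmic reticulum receptor for lysosomal enzymes, had 17.6, 17.2 and 16.9 CPM in the Japoflavone B libraries, against 16.1, 20.1 and 23.4 CPM in the DMSO libraries. The groups overlapped, and its difference did not pass the test (log2 fold change -0.19 ± 0.11 SE, edgeR adjusted p = 0.128), although it passed as lower when the first DMSO library was left out (log2 fold change -0.32) or with library totals (-0.29). CLN8 itself was 1.54-fold higher (edgeR adjusted p = 3.87e-07).

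**Figure D1:**
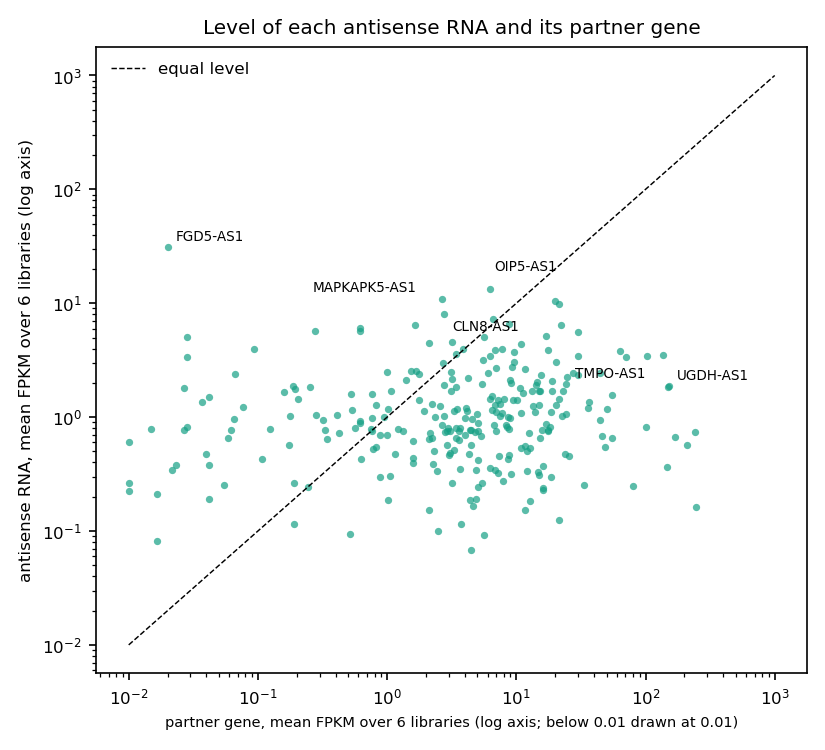
Mean FPKM over the 6 libraries of each antisense RNA (vertical, log axis) against its partner gene (horizontal, log axis), for the 273 with a partner row; the dashed line marks equal levels. Most points lie below the line, and FGD5-AS1 stands far above it.

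The 8 antisense RNAs with the highest fold changes had partners that rose, fell or did not pass the test. Of the 8 with the lowest, 7 had a partner that fell, beside 35 of the 70 antisense RNAs that fell in tested pairs and 35.4% of all genes; the 8 were picked for their size of change. The 8 at each end ran from -3.06 to -1.74 and from 2.04 to 4.0 on the log2 scale. In each of these 16 the groups did not overlap, which the rule for naming them required. Any of the 16 with fewer than 75 counts in a group met the minimum total only through its high group.

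TMPO-AS1 (chr12:98512973-98516422, minus strand) was the antisense RNA with the largest fall. It had 1.72, 1.13 and 1.18 CPM in the Japoflavone B libraries, against 11.4, 9.94 and 13.0 CPM in the DMSO libraries. All 3 Japoflavone B libraries were below 2 CPM, and TMPO-AS1 was 8.34-fold lower (log2 fold change -3.06 ± 0.20 SE, edgeR adjusted p = 8.15e-14). TMPO, which encodes the lamina-associated polypeptides that tie chromatin to the nuclear lamina, had 67.9, 69.0 and 76.3 CPM in the Japoflavone B libraries, against 337, 330.2 and 335 CPM in the DMSO libraries. It was 4.70-fold lower (edgeR adjusted p = 6.65e-23).

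HAS2-AS1 (chr8:121639293-121994185, plus strand) overlaps the start of HAS2, a synthase of the matrix sugar hyaluronan. It had 0.729, 0.399 and 0.897 CPM in the Japoflavone B libraries, against 3.62, 3.14 and 2.74 CPM in the DMSO libraries. The DMSO libraries were higher without overlap, and HAS2-AS1 was 4.59-fold lower (log2 fold change -2.20 ± 0.31 SE, edgeR adjusted p = 5.12e-07). HAS2 had 3.18, 4.52 and 4.43 CPM in the Japoflavone B libraries, against 25.4, 25.8 and 27.9 CPM in the DMSO libraries. The synthase was 6.56-fold lower (edgeR adjusted p = 8.77e-17).

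HHIP-AS1 (chr4:144642919-144661357, minus strand) had 0.365, 0.998 and 0.505 CPM in the Japoflavone B libraries, against 2.60, 1.85 and 2.80 CPM in the DMSO libraries. It was 3.95-fold lower (log2 fold change -1.98 ± 0.37 SE, edgeR adjusted p = 2.87e-05). HHIP, a membrane inhibitor of hedgehog ligands, was 1.55-fold lower (edgeR adjusted p = 0.00691), a call that was lost without the first DMSO library (adjusted p = 0.0762). SPACA6-AS1 (chr19:51685363-51693456, minus strand) had 1.04, 0.266 and 0.841 CPM in the Japoflavone B libraries, against 3.25, 3.22 and 1.46 CPM in the DMSO libraries. Its lowest DMSO library stood close to its highest Japoflavone B library, and it was 3.62-fold lower (log2 fold change -1.86 ± 0.37 SE, edgeR adjusted p = 7.71e-05). SPACA6, a membrane protein of sperm-egg fusion in mice, was 6.51-fold lower (edgeR adjusted p = 4.39e-13).

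NFATC2IP-AS1 (chr16:28952816-28966883, minus strand) showed a wide spread, with 2.92, 0.931 and 1.63 CPM in the Japoflavone B libraries, against 9.42, 6.45 and 3.37 CPM in the DMSO libraries. It was 3.47-fold lower (log2 fold change -1.79 ± 0.30 SE, edgeR adjusted p = 7.03e-06), and NFATC2IP, named for its binding to an NFAT transcription factor, was 1.96-fold lower (edgeR adjusted p = 2.51e-10). EHBP1-AS1 (chr2:62957326-63048640, minus strand) had 0.625, 0.599 and 0.785 CPM in the Japoflavone B libraries, against 1.44, 2.83 and 2.74 CPM in the DMSO libraries. The Japoflavone B libraries were the low ones, and EHBP1-AS1 was 3.43-fold lower (log2 fold change -1.78 ± 0.36 SE, edgeR adjusted p = 7.78e-05). EHBP1, an adaptor of endocytic trafficking, was 1.47-fold lower (edgeR adjusted p = 2.38e-10). SLC16A4-AS1 (chr1:110370154-110373003, plus strand), which lies inside SLC16A4 without touching its exons, had 0.886, 1.20 and 0.897 CPM in the Japoflavone B libraries, against 2.88, 3.14 and 4.01 CPM in the DMSO libraries. It was 3.35-fold lower (log2 fold change -1.74 ± 0.28 SE, edgeR adjusted p = 3.84e-06). SLC16A4, of the monocarboxylate transporter family, was 1.68-fold lower (edgeR adjusted p = 1.00e-10).

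LRP4-AS1 (chr11:46846410-46874421, plus strand) had the largest rise. It had 10.6, 9.51 and 8.13 CPM in the Japoflavone B libraries, against 0.603, 0.662 and 0.445 CPM in the DMSO libraries. The Japoflavone B libraries were all above 8 CPM and the DMSO libraries all below 1 CPM, and LRP4-AS1 was 16-fold higher (log2 fold change 4.0 ± 0.23 SE, edgeR adjusted p = 9.00e-15). LRP4, a membrane receptor for agrin at the nerve-muscle junction, had 29.8, 26.7 and 26.8 CPM in the Japoflavone B libraries, against 28.7, 25.0 and 27.5 CPM in the DMSO libraries. Its groups overlapped, and LRP4 did not pass the test (log2 fold change 0.04, edgeR adjusted p = 0.692). The 2 genes meet tail to tail, with 515 bases of overlapping exon.

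TDRKH-AS1 (chr1:151790804-151794403, plus strand) had 3.23, 3.46 and 2.02 CPM in the Japoflavone B libraries, against 0.186, 0.530 and 0.255 CPM in the DMSO libraries. It was 8.57-fold higher (log2 fold change 3.10 ± 0.40 SE, edgeR adjusted p = 8.37e-08), and without the second DMSO library the log2 fold change was 3.70. TDRKH, a Tudor-domain protein of the piRNA pathway in mice, went the other way, with 21.5, 23.5 and 19.9 CPM in the Japoflavone B libraries, against 29.8, 29.3 and 28.1 CPM in the DMSO libraries. It was 1.35-fold lower (edgeR adjusted p = 8.79e-05).

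MCPH1-AS1 (chr8:6617310-6708224, minus strand) had 5.78, 6.65 and 5.94 CPM in the Japoflavone B libraries, against 1.58, 0.795 and 0.509 CPM in the DMSO libraries. It rose clear of the DMSO range and was 6.12-fold higher (log2 fold change 2.61 ± 0.27 SE, edgeR adjusted p = 1.41e-09). MCPH1, which restrains chromosome condensation, overlapped between groups and did not pass the test (log2 fold change -0.06, edgeR adjusted p = 0.529). GLIPR1-AS1 (chr12:75483454-75489820, minus strand) had 1.98, 3.26 and 2.36 CPM in the Japoflavone B libraries, against 0.418, 0.530 and 0.636 CPM in the DMSO libraries. It was 4.78-fold higher (log2 fold change 2.26 ± 0.35 SE, edgeR adjusted p = 2.51e-06), and GLIPR1 was 1.57-fold higher (edgeR adjusted p = 8.28e-06), with no exon shared.

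RBM26-AS1 (chr13:79406293-79427317, plus strand) had 3.54, 3.59 and 3.87 CPM in the Japoflavone B libraries, against 0.835, 1.15 and 0.445 CPM in the DMSO libraries. It was 4.34-fold higher (log2 fold change 2.12 ± 0.29 SE, edgeR adjusted p = 3.30e-07), whereas RBM26, an RNA-binding protein, was 1.35-fold lower (edgeR adjusted p = 1.13e-06). ZEB1-AS1 (chr10:31206278-31320447, minus strand) had 20.9, 22.5 and 23.3 CPM in the Japoflavone B libraries, against 5.24, 5.78 and 4.58 CPM in the DMSO libraries. All 3 Japoflavone B libraries were above 20 CPM, and ZEB1-AS1 was 4.23-fold higher (log2 fold change 2.08 ± 0.12 SE, edgeR adjusted p = 8.37e-15). ZEB1, a transcription factor that represses E-cadherin, rose less and was 1.46-fold higher (edgeR adjusted p = 9.64e-08). NARF-AS2 (chr17:82453181-82458521, minus strand) had 17.5, 17.5 and 16.1 CPM in the Japoflavone B libraries, against 3.62, 4.37 and 4.45 CPM in the DMSO libraries. It was 4.12-fold higher (log2 fold change 2.04 ± 0.13 SE, edgeR adjusted p = 1.02e-13), and NARF, a binder of prelamin A, was 1.29-fold lower (edgeR adjusted p = 1.38e-04).

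**Figure D2:**
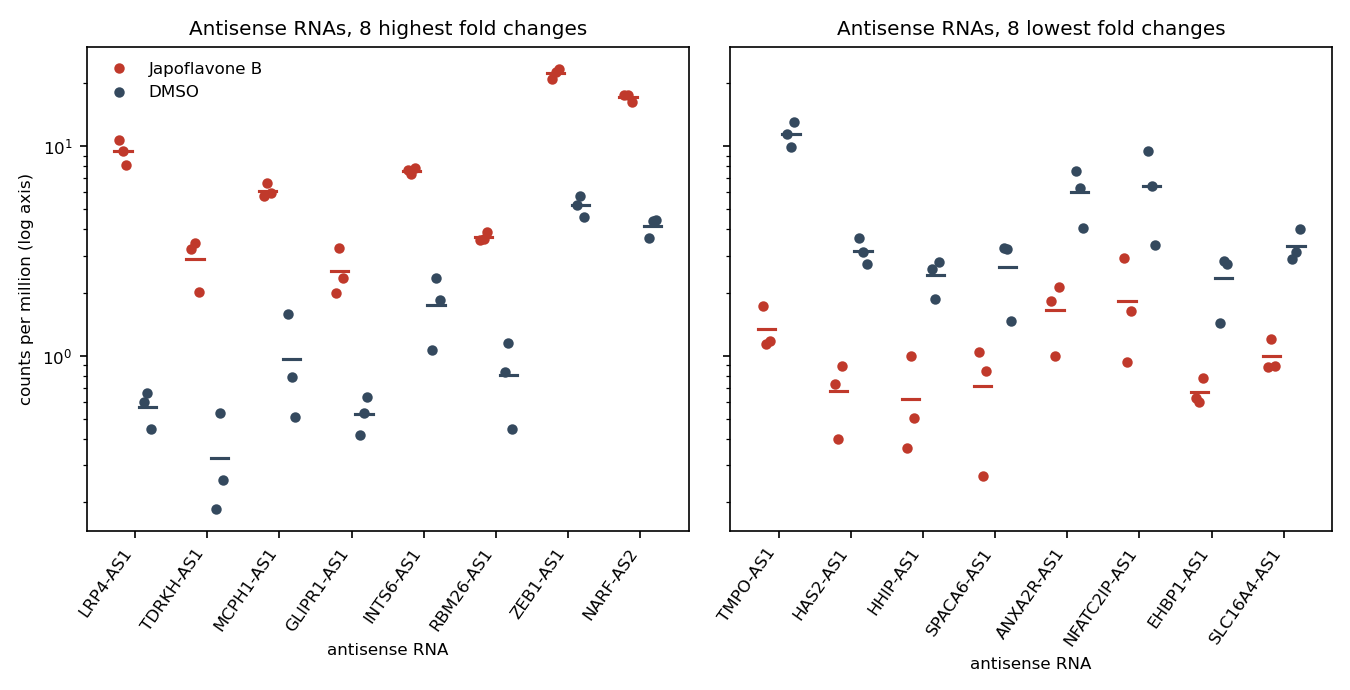
CPM (log axis) in each library of the 8 antisense RNAs with the highest fold changes (left panel) and the 8 with the lowest (right panel); points are libraries and bars are group means. The Japoflavone B and DMSO points are separate in all 16, and LRP4-AS1 shows the widest gap.

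Promoter windows show how close some head-to-head pairs start, with starts within 1000 bases by definition. Those printed are RefSeq sequences of build GRCh38.p14, from 250 bases before to 50 after each start, 5′ to 3′ on the gene's own strand. They were chosen because both transcripts of TMPO fell, both of ZNF460 rose, and the antisense RNAs of UGDH, TDRKH and NARF rose while the coding gene fell. Capitals mark matches, on either strand, to CCAAT, the CHR element TTTGAA, the GC box GGGCGG, the cyclic AMP element TGACGTCA, the AP-1 element TGANTCA, the core promoter element TATAAA and the p53 half-site; no 2 of the printed matches overlap.
TMPO-AS1: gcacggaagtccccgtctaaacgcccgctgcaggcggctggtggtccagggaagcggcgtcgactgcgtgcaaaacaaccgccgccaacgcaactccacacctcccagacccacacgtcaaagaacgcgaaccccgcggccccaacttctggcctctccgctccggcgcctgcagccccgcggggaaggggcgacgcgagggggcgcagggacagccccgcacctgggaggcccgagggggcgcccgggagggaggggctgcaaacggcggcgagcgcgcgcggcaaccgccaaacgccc
TMPO: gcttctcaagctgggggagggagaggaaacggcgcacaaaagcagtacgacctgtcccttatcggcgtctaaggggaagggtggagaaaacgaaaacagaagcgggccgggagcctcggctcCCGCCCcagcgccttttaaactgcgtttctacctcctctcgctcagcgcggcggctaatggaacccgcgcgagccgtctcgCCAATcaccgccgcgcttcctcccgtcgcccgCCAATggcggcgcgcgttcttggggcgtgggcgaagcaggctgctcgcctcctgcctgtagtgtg
ZNF460-AS1: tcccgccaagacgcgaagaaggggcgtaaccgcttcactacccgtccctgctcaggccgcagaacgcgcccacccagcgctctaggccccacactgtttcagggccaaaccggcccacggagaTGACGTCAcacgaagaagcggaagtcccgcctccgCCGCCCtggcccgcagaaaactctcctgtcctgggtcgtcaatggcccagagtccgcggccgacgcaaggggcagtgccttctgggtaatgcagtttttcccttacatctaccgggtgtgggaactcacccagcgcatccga
ZNF460: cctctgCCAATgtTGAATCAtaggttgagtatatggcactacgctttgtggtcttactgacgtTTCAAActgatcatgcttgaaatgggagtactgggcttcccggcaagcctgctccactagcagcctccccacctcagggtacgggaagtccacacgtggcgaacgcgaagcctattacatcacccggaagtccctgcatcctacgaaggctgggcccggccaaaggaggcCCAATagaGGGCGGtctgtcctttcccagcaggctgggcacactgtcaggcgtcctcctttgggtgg
UGDH-AS1: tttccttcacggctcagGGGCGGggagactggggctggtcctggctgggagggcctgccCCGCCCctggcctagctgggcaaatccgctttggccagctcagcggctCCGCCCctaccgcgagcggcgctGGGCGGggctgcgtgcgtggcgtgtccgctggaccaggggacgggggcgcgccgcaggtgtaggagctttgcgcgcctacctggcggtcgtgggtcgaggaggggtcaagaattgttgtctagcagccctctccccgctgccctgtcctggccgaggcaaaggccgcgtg
TDRKH-AS1: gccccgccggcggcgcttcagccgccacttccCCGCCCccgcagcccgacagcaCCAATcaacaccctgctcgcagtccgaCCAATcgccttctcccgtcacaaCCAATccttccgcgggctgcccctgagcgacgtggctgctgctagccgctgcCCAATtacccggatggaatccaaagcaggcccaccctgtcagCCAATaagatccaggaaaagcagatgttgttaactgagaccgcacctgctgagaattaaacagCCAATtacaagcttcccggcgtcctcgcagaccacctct
NARF-AS2: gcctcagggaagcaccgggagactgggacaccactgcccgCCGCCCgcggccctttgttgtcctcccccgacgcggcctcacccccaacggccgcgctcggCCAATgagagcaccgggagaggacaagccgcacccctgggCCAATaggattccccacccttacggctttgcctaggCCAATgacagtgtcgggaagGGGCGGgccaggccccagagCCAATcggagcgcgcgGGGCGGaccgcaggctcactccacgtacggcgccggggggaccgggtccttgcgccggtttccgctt
The TMPO-AS1 window (chr12:98516177-98516476, minus strand) held none of the motifs, and the TMPO window (chr12:98515323-98515622, plus strand) held 2 CCAAT boxes and 1 GC box. The RefSeq start of TMPO-AS1 lies 653 bases downstream of that of TMPO, so its transcript runs back across the TMPO start. ZNF460-AS1 (chr19:57280285-57280584, minus strand), 352 bases downstream of the ZNF460 start, held 1 cyclic AMP element and 1 GC box. ZNF460 (chr19:57279732-57280031, plus strand) held 2 CCAAT boxes and 1 each of the CHR element, the GC box and the AP-1 element. UGDH-AS1 (chr4:39527589-39527888, plus strand) starts 400 bases upstream of UGDH and held 4 GC boxes. TDRKH-AS1 (chr1:151790499-151790798, plus strand) starts 249 bases upstream of TDRKH, shares 252 bases of window with it and held 6 CCAAT boxes and 1 GC box. NARF-AS2 (chr17:82458470-82458769, minus strand), 321 bases downstream of the NARF start, held 4 CCAAT boxes and 3 GC boxes.

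Among all 35114 promoter windows of this length, 34.6% held a CCAAT box, 45% a GC box, 15.2% the CHR element, 1.85% the cyclic AMP element, 7.71% the AP-1 element, 11.5% TATAAA and 6.63% the p53 half-site. Windows were found for 211 antisense RNAs. Of these, 33.6% held a CCAAT box, 65.4% a GC box, 7.11% the CHR element, 5.21% the cyclic AMP element, 5.69% the AP-1 element, 5.21% TATAAA and 9% the p53 half-site. The p53 half-site was in 2 of 62 windows of antisense RNAs that rose (3.23%) and in 5 of 63 of those that fell (7.94%). The GC box was in 69.4% of the windows of those that rose and in 57.1% of those that fell. The windows of the antisense RNAs were limited to detected RNAs and a single window each, and the 35114 were not. These unlike sets were not tested against each other. A match describes letters in a window and not a site in use.

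Whether an antisense RNA and its partner moved together was read from 245 pairs in which both passed the filter. Both passed the test in 105 pairs, in the same direction in 62 (25.3%) and in opposite directions in 43 (17.6%). The same direction was both higher in 27 and both lower in 35 pairs. In 23 of the opposite pairs the antisense RNA rose and the partner fell, and in 20 it fell and the partner rose. Among 16057 pairs of tested genes next to each other on a chromosome, 27.3% moved in the same direction and 22.2% in opposite directions. Among 1687 other head-to-head pairs these shares were 28.6% and 21%. Of the pairs with both called, 59% moved together, beside 55.1% of neighbouring genes and 57.7% of other head-to-head genes, so the members lay near the background.

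In the other 140 pairs at most one side passed. The antisense RNA alone rose in 20 and fell in 15, the partner alone rose in 42 and fell in 37, and neither passed in 26. Of the 245 partners, 89 rose and 95 fell (75.1% called), 19 and 26 of them by at least 2-fold. Of all genes tested 70% were called, and 79.3% of those with more than 1000 counts, a range that holds the partners' median of 4335. At least 2-fold changes with a call were 9.67% higher and 15% lower of all genes tested. Across the 245 pairs the log2 fold changes of antisense RNA and partner correlated weakly (Pearson 0.21, Spearman 0.20), beside a Pearson value of 0.12 for neighbouring genes and 0.18 for other head-to-head genes. All these points come from the same 6 libraries.

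The ratio of antisense RNA to partner was also followed within each library, as a log2 ratio of CPM after adding 0.5 counts. It did not overlap between groups in 153 of 245 pairs (62.4%), higher after Japoflavone B in 78 and lower in 75, beside 67.9% of neighbouring pairs and 68% of other head-to-head pairs. All 43 opposite pairs and 35 of the 62 same-direction pairs were among them. With 3 libraries against 3 the smallest exact p for a single ratio is 0.1.

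**Figure D3:**
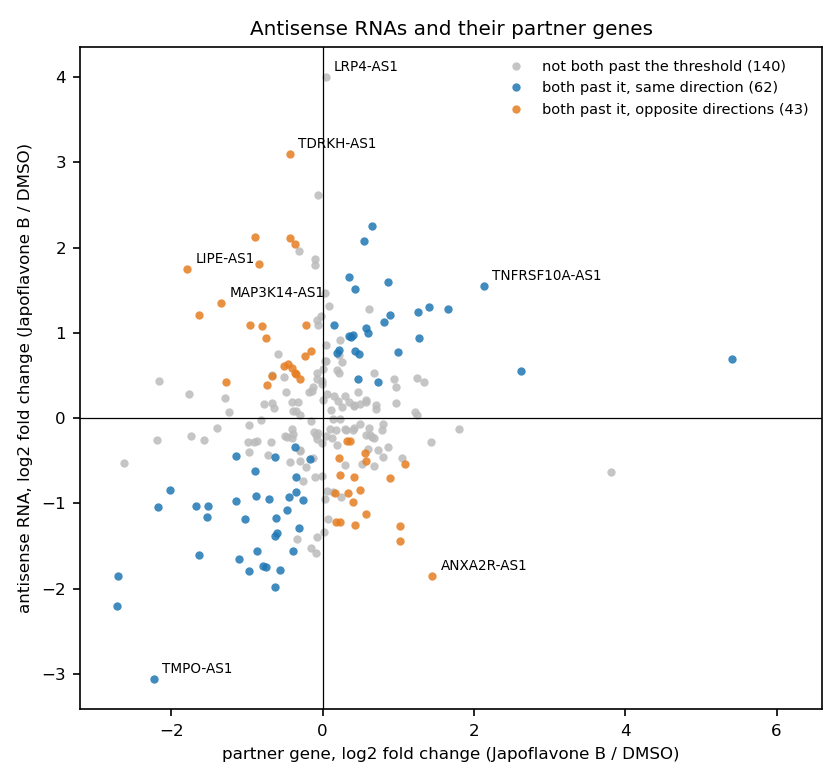
Log2 fold change (Japoflavone B over DMSO) of each of 245 antisense RNAs (vertical) against its partner gene (horizontal); colours separate pairs with both past the threshold in the same direction (62), in opposite directions (43) and the other 140. Points fill all 4 quadrants, and LRP4-AS1 sits at the top with its partner near 0.

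Both sides changed by at least 2-fold in 14 same-direction and 6 opposite pairs. The 10 opposite pairs with the largest smaller change were those of LIPE, ANXA2R, MAP3K14, SLC25A21, GAS6, PXN, DNAJC9, INTS6, UGDH and WDFY3. The antisense RNA was the one that rose in 7 of them and the one that fell at ANXA2R, GAS6 and PXN.

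LIPE-AS1 (chr19:42397114-42652367, plus strand) had 6.20, 6.78 and 6.00 CPM in the Japoflavone B libraries, against 2.13, 1.55 and 1.97 CPM in the DMSO libraries. It was 3.36-fold higher (log2 fold change 1.75 ± 0.20 SE, edgeR adjusted p = 1.58e-08). LIPE, the hormone-sensitive lipase that releases fatty acids from stored fat, had 1.15, 1.40 and 1.35 CPM in the Japoflavone B libraries, against 4.92, 4.86 and 3.56 CPM in the DMSO libraries. The lipase was 3.46-fold lower (edgeR adjusted p = 3.03e-07), close in size to the rise of its antisense RNA.

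MAP3K14-AS1 (chr17:45247916-45269824, plus strand) was the most abundant of the 10 in CPM, with 49.9, 48.1 and 51.5 CPM in the Japoflavone B libraries, against 19.9, 20.4 and 18.1 CPM in the DMSO libraries. It was 2.55-fold higher (log2 fold change 1.35 ± 0.08 SE, edgeR adjusted p = 7.62e-15). MAP3K14, the NF-κB-inducing kinase of the non-canonical pathway, had 30.9, 27.7 and 25.1 CPM in the Japoflavone B libraries, against 70.7, 72.9 and 69.0 CPM in the DMSO libraries. In CPM the antisense RNA was the higher of the pair after Japoflavone B and the kinase after DMSO. MAP3K14 was 2.54-fold lower (edgeR adjusted p = 3.30e-15), and 713 bases of exon overlap at the ends of the pair.

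SLC25A21-AS1 (chr14:37171888-37173811, plus strand) had 4.01, 5.25 and 4.32 CPM in the Japoflavone B libraries, against 1.39, 2.34 and 2.10 CPM in the DMSO libraries. It was 2.32-fold higher (log2 fold change 1.21 ± 0.24 SE, edgeR adjusted p = 5.47e-05). SLC25A21, a mitochondrial carrier of oxodicarboxylates, had 0.469, 0.200 and 0.393 CPM in the Japoflavone B libraries, against 1.35, 0.883 and 1.21 CPM in the DMSO libraries. The carrier was low in all libraries and was 3.11-fold lower (edgeR adjusted p = 0.00171).

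UGDH-AS1 (chr4:39527720-39594707, plus strand) had 10.3, 11.0 and 9.81 CPM in the Japoflavone B libraries, against 3.20, 2.96 and 2.67 CPM in the DMSO libraries. The Japoflavone B libraries stood at about 10 CPM, and UGDH-AS1 was 3.49-fold higher (log2 fold change 1.80 ± 0.16 SE, edgeR adjusted p = 7.60e-11). UGDH, which makes the UDP-glucuronate used for glucuronidation and for hyaluronan, had 433, 427 and 435 CPM in the Japoflavone B libraries, against 791, 756 and 771 CPM in the DMSO libraries. It was 1.79-fold lower (edgeR adjusted p = 4.20e-15).

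INTS6-AS1 (chr13:51452364-51554678, plus strand) had 7.66, 7.38 and 7.85 CPM in the Japoflavone B libraries, against 1.07, 2.34 and 1.85 CPM in the DMSO libraries. It was 4.35-fold higher (log2 fold change 2.12 ± 0.22 SE, edgeR adjusted p = 1.23e-09). INTS6, a subunit of the Integrator complex that cleaves nascent RNA, was 1.86-fold lower (edgeR adjusted p = 7.47e-10). DNAJC9-AS1 (chr10:73252791-73254349, plus strand), which lies apart from its partner with starts 5536 bases away, had 4.32, 3.86 and 3.59 CPM in the Japoflavone B libraries, against 1.58, 1.94 and 2.04 CPM in the DMSO libraries. All 3 Japoflavone B libraries were the higher ones, and it was 2.13-fold higher (log2 fold change 1.09 ± 0.23 SE, edgeR adjusted p = 1.61e-04). DNAJC9, a histone chaperone with a J domain, was 1.95-fold lower (edgeR adjusted p = 1.02e-10). WDFY3-AS2 (chr4:84965534-85011277, plus strand) had 6.15, 5.72 and 6.79 CPM in the Japoflavone B libraries, against 3.48, 2.91 and 2.35 CPM in the DMSO libraries. The groups stood apart, and WDFY3-AS2 was 2.11-fold higher (log2 fold change 1.08 ± 0.19 SE, edgeR adjusted p = 1.28e-05). WDFY3, an adaptor of selective autophagy, was 1.74-fold lower (edgeR adjusted p = 3.72e-09), and no exon of this pair overlapped.

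ANXA2R-AS1 (chr5:43041572-43064272, plus strand) had 1.82, 0.998 and 2.13 CPM in the Japoflavone B libraries, against 7.61, 6.31 and 4.07 CPM in the DMSO libraries. It was 3.61-fold lower (log2 fold change -1.85 ± 0.25 SE, edgeR adjusted p = 2.38e-07). ANXA2R, a receptor for annexin A2, had 5.52, 5.65 and 4.77 CPM in the Japoflavone B libraries, against 1.62, 2.16 and 2.04 CPM in the DMSO libraries. The receptor was 2.73-fold higher (edgeR adjusted p = 8.99e-07), and neither gene's groups overlapped.

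GAS6-AS1 (chr13:113815630-113845744, plus strand) had 2.87, 2.19 and 3.64 CPM in the Japoflavone B libraries, against 8.82, 8.21 and 6.62 CPM in the DMSO libraries. It was 2.71-fold lower (log2 fold change -1.44 ± 0.19 SE, edgeR adjusted p = 1.29e-07). GAS6, the ligand of the receptor kinases TYRO3, AXL and MERTK, had 38.0, 35.4 and 34.8 CPM in the Japoflavone B libraries, against 16.7, 19.1 and 17.3 CPM in the DMSO libraries. It was 2.04-fold higher (edgeR adjusted p = 2.49e-11). PXN-AS1 (chr12:120201274-120213233, plus strand) had 1.61, 2.46 and 2.19 CPM in the Japoflavone B libraries, against 4.69, 5.52 and 4.71 CPM in the DMSO libraries. It was 2.41-fold lower (log2 fold change -1.27 ± 0.22 SE, edgeR adjusted p = 9.42e-06), and PXN, the focal adhesion adaptor paxillin, was 2.02-fold higher (edgeR adjusted p = 1.98e-15).

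**Figure D4:**
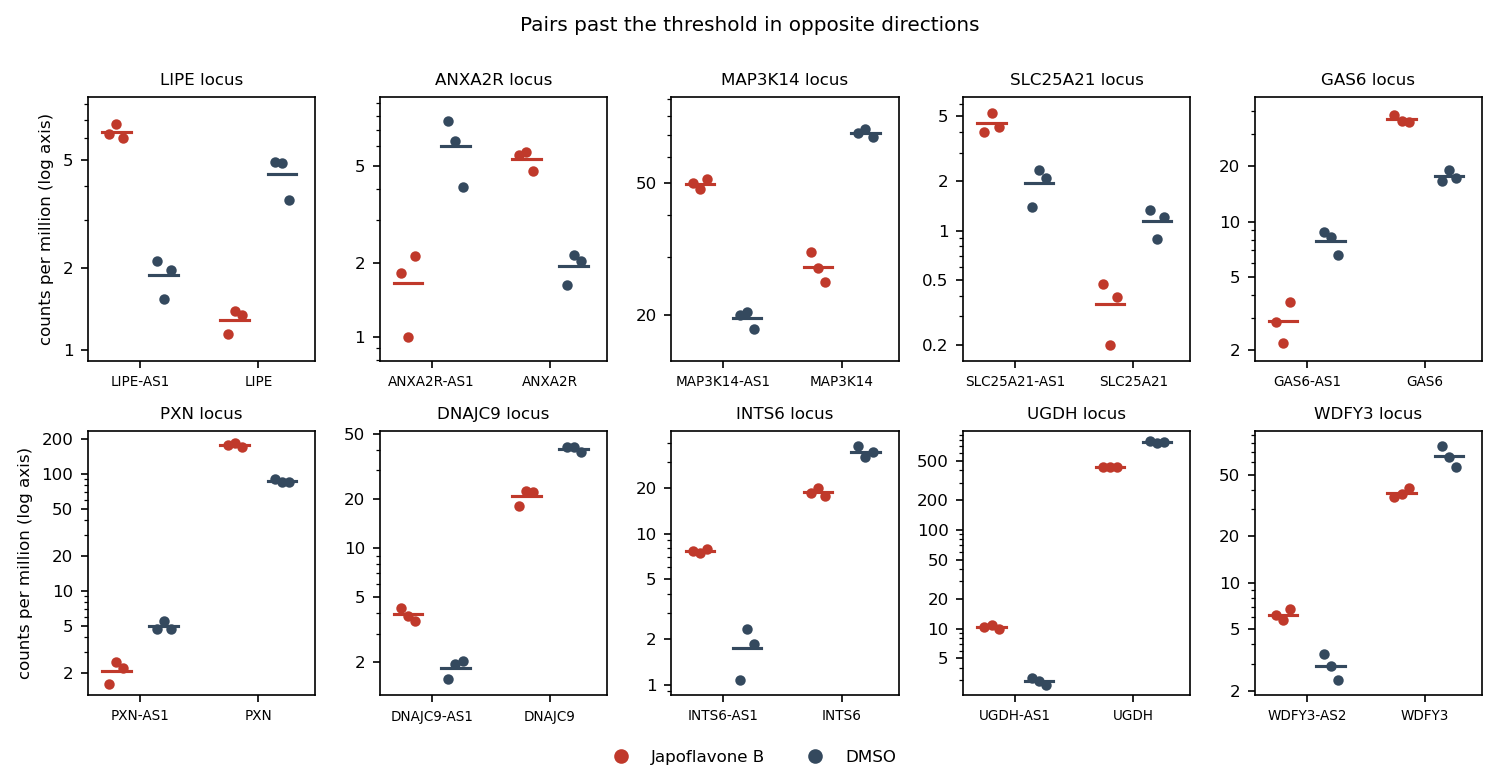
CPM (log axis) in each library of 10 pairs that passed the threshold in opposite directions; points are libraries, bars are group means, Japoflavone B in red and DMSO in dark blue. In every panel the antisense RNA and its partner are separated between groups in contrary directions.

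Of the 8 same-direction pairs with the largest smaller change, TMPO, HAS2, SPACA6 and TSKU fell with their antisense RNAs and TNFRSF10A, RARA, ZNF460 and LIF rose with theirs. TNFRSF10A-AS1 (chr8:23189279-23190675, plus strand) was among the most abundant at 14.5 ± 3.69 FPKM in the Japoflavone B libraries and 5.36 ± 0.275 FPKM in the DMSO libraries (SD, n = 3 each). It had 12.2, 7.51 and 9.08 CPM in the Japoflavone B libraries, against 3.43, 3.09 and 3.37 CPM in the DMSO libraries. It was 2.93-fold higher (log2 fold change 1.55 ± 0.18 SE, edgeR adjusted p = 1.39e-08). TNFRSF10A, the death receptor for TRAIL also called DR4, had 102, 106 and 106 CPM in the Japoflavone B libraries, against 26.4, 21.1 and 24.2 CPM in the DMSO libraries. The receptor was 4.38-fold higher (edgeR adjusted p = 5.59e-20), and 224 bases of exon overlap at the ends of the pair.

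RARA-AS1 (chr17:40340867-40343136, minus strand) had 9.48, 9.11 and 10.4 CPM in the Japoflavone B libraries, against 2.41, 4.37 and 5.09 CPM in the DMSO libraries. It was 2.48-fold higher (log2 fold change 1.31 ± 0.19 SE, edgeR adjusted p = 5.62e-07). RARA, the retinoic acid receptor alpha in which it is nested, had 62.9, 73.1 and 64.7 CPM in the Japoflavone B libraries, against 24.6, 26.0 and 24.6 CPM in the DMSO libraries. The receptor was 2.66-fold higher (edgeR adjusted p = 1.00e-15).

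LIF-AS2 (chr22:30246205-30246998, plus strand) had 7.08, 6.58 and 5.55 CPM in the Japoflavone B libraries, against 3.25, 2.83 and 1.91 CPM in the DMSO libraries. It was 2.36-fold higher (log2 fold change 1.24 ± 0.20 SE, edgeR adjusted p = 3.56e-06). LIF, a cytokine that signals through gp130 and STAT3, had 167, 166 and 168 CPM in the Japoflavone B libraries, against 70.1, 70.7 and 67.8 CPM in the DMSO libraries. The cytokine gene was 2.40-fold higher (edgeR adjusted p = 9.76e-18).

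ZNF460-AS1 (chr19:57267211-57280334, minus strand) had 1.88, 2.66 and 1.74 CPM in the Japoflavone B libraries, against 0.975, 0.795 and 0.764 CPM in the DMSO libraries. It was 2.43-fold higher (log2 fold change 1.28 ± 0.33 SE, edgeR adjusted p = 0.00115). ZNF460, a zinc finger protein, had 2.97, 3.99 and 4.54 CPM in the Japoflavone B libraries, against 1.39, 0.971 and 1.27 CPM in the DMSO libraries. It was 3.16-fold higher (edgeR adjusted p = 3.57e-06), with no exon shared. TSKU-AS1 (chr11:76782581-76783062, minus strand) had 0.625, 0.665 and 0.673 CPM in the Japoflavone B libraries, against 2.23, 1.77 and 2.04 CPM in the DMSO libraries. It was 3.05-fold lower (log2 fold change -1.61 ± 0.34 SE, edgeR adjusted p = 1.41e-04), and TSKU, a secreted leucine-rich proteoglycan, was 3.09-fold lower (edgeR adjusted p = 2.95e-20).

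How the pair is arranged was not used to choose it. Head to head here means starts within 1000 bases on opposite strands; nested means one span inside the other; overlapping starts and tail to tail mean spans that overlap at their 5′ or 3′ ends. Of 86 head-to-head pairs, 18 moved in the same direction (20.9%) and 17 in opposite directions (19.8%), beside 28.6% and 21% of other head-to-head pairs. Among 51 nested pairs these counts were 15 (29.4%) and 4 (7.84%), and among 48 pairs with overlapping starts 13 (27.1%) and 9 (18.8%). The 55 tail-to-tail pairs split into 15 (27.3%) and 12 (21.8%), and the remaining pairs were 4 that lay apart and 1 on the same strand. Among neighbouring tested genes the shares were 27.3% and 22.2%. The opposite nested pairs, named after their values were seen, were those of CIRBP, LIPE, THUMPD3 and VPS9D1. The antisense RNA itself rose in 9 and fell in 12 of the 51 nested pairs. It rose in 25 and fell in 23 of the 86 head-to-head pairs. These counts were 15 and 18 of the 48 with overlapping starts, and 18 and 17 of the 55 tail-to-tail pairs. Over all 276 antisense RNAs 27.9% rose and 30.1% fell, beside 34.7% and 35.4% of all genes tested. No test was made between arrangements.

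Of the 86 head-to-head pairs, 72 overlapped in span, with 16 same and 17 opposite, and 14 did not, with 2 same and 0 opposite. In GENCODE 29, which lists all 245 pairs on GRCh38, exons of the 2 genes overlapped in 190 pairs, with 50 same and 37 opposite, and did not in 55, with 12 and 6. Whether the counting used strand is not given in the sources used here, and without strand, reads from overlapping exons of a gene and its antisense partner cannot be told apart. As a measurement, 7 antisense rows had at least 90% of their exon bases inside exons of a partner with at least 10 FPKM. Of these 4 were at 0 counts, and the highest, PHLDA1-AS1, stood at 0.0717 FPKM beside 46.2 FPKM for its partner. The largest share of a partner's level was 0.5%, in ARMCX3-AS1. How the counting treated reads that overlap 2 genes is not given, so these rows cannot show whether strand was used.

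**Figure D5:**
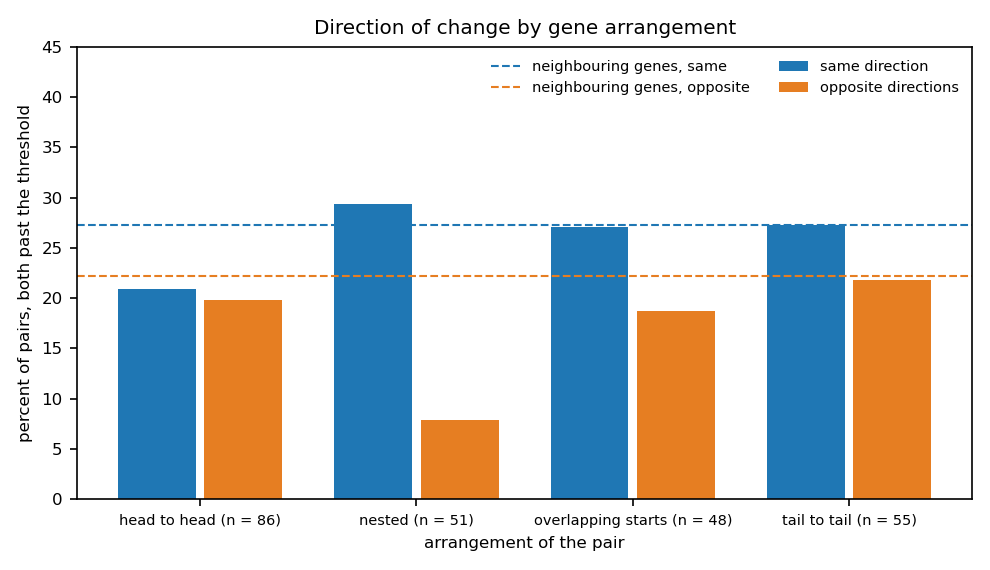
Percent of pairs with both genes past the threshold in the same direction and in opposite directions, by arrangement of the pair; dashed lines give the shares among neighbouring tested genes, 27.3% and 22.2%. Of the 4 arrangements plotted, nested pairs have the lowest opposite bar, at 7.84% of 51 pairs; the 4 pairs that lay apart and the 1 on the same strand are not drawn.

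For 28 antisense RNAs the partner held 0 to 56 counts and was not tested. Of these antisense RNAs 7 rose, 10 fell and 11 did not pass the test. Of all genes tested 34.7% rose and 35.4% fell, and of genes with 150 to 1000 counts 61.9% passed. FGD5-AS1, above, was one of 7 antisense RNAs with an untested partner and more than 1000 counts. CDKN2B-AS1, also known as ANRIL, held 511 counts where CDKN2B, an inhibitor of the cyclin D kinases, held 4. CDKN2B-AS1 was named after its values were seen and did not pass the test (log2 fold change 0.37, edgeR adjusted p = 0.0787).

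For 3 antisense RNAs, named after their values were seen, the symbol points to a gene cluster and not to 1 gene. HOXA-AS2 had 2.40, 3.06 and 1.85 CPM in the Japoflavone B libraries, against 7.70, 8.61 and 7.25 CPM in the DMSO libraries. It was 3.26-fold lower (log2 fold change -1.71 ± 0.19 SE, edgeR adjusted p = 6.72e-09). HOXB-AS1 had 0.417, 1.26 and 0.953 CPM in the Japoflavone B libraries, against 2.55, 2.43 and 1.97 CPM in the DMSO libraries. The DMSO libraries were the higher ones, and HOXB-AS1 was 2.71-fold lower (log2 fold change -1.44 ± 0.34 SE, edgeR adjusted p = 5.54e-04). HOXB-AS3 had 2.34, 2.79 and 1.35 CPM in the Japoflavone B libraries, against 8.40, 6.84 and 3.69 CPM in the DMSO libraries. It was 2.99-fold lower (log2 fold change -1.58 ± 0.26 SE, edgeR adjusted p = 4.45e-06). Of all genes tested 35.4% were lower, and nothing is read from these 3 as a group.

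Of 21 tested genes of nuclear RNA decay, the exosome and its helpers, 6 rose, 10 fell and 5 did not pass the test. That is 76.2% called, near the 70% of all genes, and the median log2 fold change was -0.02 beside -0.00 over all genes. MTREX, the helicase that feeds RNA to the exosome, had 76.7, 80.9 and 80.2 CPM in the Japoflavone B libraries, against 129, 120.4 and 124 CPM in the DMSO libraries. It was 1.57-fold lower (log2 fold change -0.65, edgeR adjusted p = 4.68e-11). EXOSC9, a ring subunit, was 1.77-fold lower (log2 fold change -0.82, edgeR adjusted p = 8.07e-10), and PABPN1, the nuclear poly(A)-binding protein, was 1.68-fold lower (log2 fold change -0.74, edgeR adjusted p = 2.05e-09). ZCCHC7, a partner of MTREX in the nucleolar adaptor complex, rose, with 88.1, 91.7 and 85.2 CPM in the Japoflavone B libraries, against 33.6, 31.2 and 32.4 CPM in the DMSO libraries. It was 2.73-fold higher (log2 fold change 1.45, edgeR adjusted p = 2.84e-17). DIS3, the main exosome nuclease, was 1.49-fold higher (log2 fold change 0.58, edgeR adjusted p = 2.47e-09).

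Of 18 tested genes that bind, edit, cut or sense double-stranded RNA, 1 rose, 12 fell and 5 did not pass the test. That is 72.2% called, near the 70% of all genes, of which 35.4% were lower; the median log2 fold change of the list was -0.19 beside -0.00 over all genes. DHX9, a helicase that unwinds RNA duplexes, had 119.7, 124 and 119 CPM in the Japoflavone B libraries, against 347, 312 and 325 CPM in the DMSO libraries. It was 2.71-fold lower (log2 fold change -1.44, edgeR adjusted p = 4.13e-19). OAS3, which makes the activator of RNase L, was 2.64-fold lower (log2 fold change -1.40, edgeR adjusted p = 1.40e-16), and IFIH1, the cytoplasmic sensor MDA5, was 2.20-fold lower (log2 fold change -1.14, edgeR adjusted p = 1.39e-05). DROSHA, the nuclease that cuts primary microRNAs, was 1.86-fold lower (log2 fold change -0.89, edgeR adjusted p = 7.24e-13). ADAR, the main RNA editing enzyme, did not pass the test (log2 fold change -0.06). DICER1, which rose, did so by little (log2 fold change 0.15, edgeR adjusted p = 0.0442), and was called in 4 of 15 alternative fits.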

How the data were processed

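The deposited table holds, per the file headers, whole-number counts per Ensembl gene for 6 libraries, with FPKM that the authors computed from the counts, the exonic gene size and the library total; recomputed FPKM differed by at most 0.005. Tools named in the submitters' processing notes, without role or order, are HISAT2 2.0.1, cutadapt 1.9.1, DESeq2 and HTSeq 0.6.1, on GRCh38. The strand setting and the annotation release are not given in the sources used here. Libraries were grouped by their treatment label.

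Counts were filtered by filterByExpr (minimum count 10, minimum total 15), scaled by TMM factors (0.957 to 0.970 for Japoflavone B, 1.03 to 1.04 for DMSO) and fitted with edgeR 4.0.16 in R 4.3.3 (quasi-likelihood, group as the single term), with p-values adjusted after Benjamini and Hochberg over the 16082 genes kept and called under 0.05. The SE of a log2 fold change was derived from the fit's F statistic. CPM are counts divided by the scaled library total. The fit was checked on simulated data.

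An antisense RNA was paired with the gene whose symbol precedes AS; 1 such RNA was on the partner's own strand by the deposited coordinates, and 272 different partners had a row. Exon overlap came from GENCODE 29, in which all 276 antisense RNAs were found by gene ID. The annotation behind the counts may differ from it, since 101 of the 276 had the same span in both. Promoters came from RefSeq. Named were the 8 highest and the 8 lowest fold changes among calls without overlap, the 6 highest mean FPKM, up to 10 opposite and 8 same-direction pairs by the smaller absolute change, and 3 RNAs on each side of the count threshold; any other was chosen after its values were seen. The members, lists and tests were chosen with earlier results of these data known. Alternatives were other filters, scalings and count thresholds, DESeq2 1.42.0, limma 3.58.1 on log2(FPKM + 1) and log2(FPKM + 0.1), the replicate number as a block, and each library left out. Some items are not reported here.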

Additional observations from a re-analysis of the deposited data

How the results depend on the processing

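The 160 antisense RNAs called, the 62 pairs in the same direction and the 43 in opposite directions stayed within 1.5 times under other scalings, no filter, DESeq2 (144 antisense RNAs, 57 and 34 pairs) and limma. Where fewer or more antisense RNAs entered, the counts moved with the number tested. With a mean of at least 2 FPKM, 42 of 61 were called, with 15 pairs in the same and 12 in opposite directions, beside 7822 of 10038 genes called. With a minimum total of 50 counts, 248 of 466 were called, with 99 and 66 pairs. With a minimum of 300 counts, 103 of 160 were called, with 36 and 33 pairs. Both count thresholds used the main fit, in which 70% of all genes tested were called. Leaving out 1 library gave 143 to 156 antisense RNAs, 54 to 60 same-direction and 36 to 42 opposite pairs, and 10701 to 11301 of all genes, against 11263. In all 6 of these fits 123 antisense calls were kept. Replicate numbers did not pair the libraries (correlations of deviations 0.024, 0.013 and -0.077); with the number as a block 156 antisense RNAs, 60 same-direction and 41 opposite pairs and 11120 of all genes were called. For the 78 named genes, 1102 of 1136 alternative values kept direction and side of the threshold, 15 lost the call and 6 gained one. The other 13 changed sign, all in 4 genes that were called neither before nor after. Many of the named genes were picked for large changes in these same libraries, so the stability of their values does not describe the members as a whole. With library totals, limma on log2(FPKM + 0.1) and limma on log2(FPKM + 1), LRP4 (0.04) was -0.0623, -0.0657 and -0.0513, PPP1R26 (0.06) was -0.0406, -0.0411 and -0.0376, and KDM4A (0.09) was -0.0165, -0.0151 and -0.0128. LRP4 was -0.00703 with a mean of at least 2 FPKM, and with 1 library left out it ran from -0.0225 to 0.0912, below 0 without DMSO 2 or Japoflavone B 1. USP3-AS1 (-0.14) ran from -0.213 to 0.000993, above 0 without Japoflavone B 2. The cause of these changes was not tested. The lost calls were of DMTF1-AS1, PPP1R26-AS1, USP3 and HHIP, and the gained ones of CLN8-AS1 and KDM4A-AS1. Folds on log2(FPKM + 1) understate low genes. The scarcest antisense RNAs rest on 150 counts over 6 libraries, at which a change could go undetected.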

Other observations

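Other noncoding RNAs with at least 150 counts can be set beside the antisense RNAs by their symbols. Of 121 divergent transcripts, which start next to a coding gene and run away from it, 43 rose, 32 fell and 46 did not pass the test after Japoflavone B, against DMSO, with a median log2 fold change of 0.16. Of 108 intergenic RNAs with a LINC symbol, 29 rose, 42 fell and 37 did not pass, with a median of -0.22. The antisense RNAs, with 77 higher and 83 lower, had a median of -0.10. Of all genes tested 34.7% rose and 35.4% fell, with a median of -0.00. Of genes with 150 to 1000 counts 25.6% rose and 36.4% fell. The classes were not tested against each other. Of 5 antisense RNAs without a number in the symbol, 2 rose and 1 fell, and of 4 intronic transcripts 1 rose and 2 fell.

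In some pairs the partner moved far more than its antisense RNA, and these were picked after their values were seen. SDCBP2, a syntenin family member, had a log2 fold change of 5.40, and SDCBP2-AS1 one of 0.70 (edgeR adjusted p = 0.0019). NCKAP5 had a log2 fold change of -2.62, and NCKAP5-AS2, at -0.52, did not pass the test (edgeR adjusted p = 0.193).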
